A study of Mus musculus with 15 samples.

Results

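Mouse embryonic stem cells (ESCs) were compared with the cells that 4 days of induction towards epiblast-like cells (EpiLCs) produced from a control line, by RNA sequencing. The comparison used the 3 libraries of ESCs at day 0 and the 3 libraries of control cells at day 4, 6 of the 15 libraries of the series. All 6 are labelled as the E14TG2 line with the genotype Control, so no library in the comparison carries the Atg7 deletion studied elsewhere in the series. The ESCs grew on inactivated mouse embryonic fibroblasts with 20% knockout serum replacement, 1000 U/ml leukaemia inhibitory factor (LIF), 1 µM of the MEK inhibitor PD0325901 and 3 µM of the GSK3 inhibitor CHIR99021. For induction the cells were placed on fibronectin, without feeders, in N2B27 medium with 20% serum replacement, basic FGF at 12 ng/ml and activin A at 20 ng/ml. Medium, matrix, feeders, factors and time therefore all differ between the groups and cannot be told apart.

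Naive ESCs resemble the epiblast before implantation. LIF keeps them in that state by activating the transcription factor STAT3, the MEK inhibitor by blocking the ERK signal of FGF, and the GSK3 inhibitor by stabilising beta-catenin. When these are withdrawn and activin and FGF are supplied, the cells leave the naive state and pass through a formative state like that of the early post-implantation epiblast, in which de novo DNA methylation is high and the cells become competent for germ layer and germ cell induction.

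The libraries held 14059237 to 16517519 counts assigned to genes. A gene symbol with at least 1 count was found for 17384 to 17500 symbols in the ESC libraries and 18777 to 19049 at day 4. Nothing in the labels says whether the replicates were separate cultures. The p-values therefore cover the spread among libraries alone, which may be technical. That spread was estimated from all 15 libraries of the series together and not from these 6. The ESC libraries did not resemble each other equally: the chi-square statistic per degree of freedom over genes was 6.20 between replicates 1 and 2, against 34.2 and 26.0 between replicate 3 and each of them, and 4.99 to 7.5 between day 4 libraries. Fibroblast RNA also differed between the ESC libraries, and fell from replicate 1 to 2 and from 2 to 3. The summed level of 24 fibroblast genes was 4808, 3508 and 2423 CPM (read counts relative to the scaled total of the library) in ESC replicates 1, 2 and 3, and 1052 to 1164 CPM at day 4. Replicate 3 was the lowest ESC library for 22 of the 24 genes, and none of the 24 was at 0 in any of the 6 libraries. Col1a1, which encodes type I collagen, was at 507, 281 and 88.2 CPM in the ESC libraries and at 11.4, 11.7 and 13.3 CPM at day 4. In bulk RNA, fewer cells of a type and less RNA per cell cannot be told apart.

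The labels of the groups were set beside marker genes. Pou5f1 and Sox2, the core pluripotency factors, were read in every library. Their log2 fold changes from ESC to day 4 were -1.32 for Pou5f1 and -1.18 for Sox2. Being present in both groups, they do not tell an ESC label from an EpiLC label. Of 20 naive genes 15 fell, and of 20 formative and primed genes 14 rose. The naive gene Zfp42 and the endoderm gene Gata6 rose, by 1.22 and 4.49, so the markers did not all go with the day 4 label. The label of both groups as the same line met a difference at Hprt, the purine salvage gene on chromosome X (GRCm38 chrX:52988078-53021660), in which E14TG2 lines are known to be deficient. Hprt was at 183, 203 and 200 CPM in the libraries labelled ESC and at 2.10, 1.59 and 1.83 CPM at day 4 (log2 fold change -6.72, SE 0.11, edgeR adjusted p = 1.57e-16). The day 2 control libraries were at 2.22 to 2.51 CPM, like day 4. ESC replicate 3, with the least fibroblast RNA, had as much Hprt as the other 2. Hprt thus goes against the shared line label in the libraries labelled ESC. The part that a difference in cell line between the groups, or feeder RNA, has in any result below was not tested, and every direction below is drawn from libraries labelled ESC.

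Of 24982 gene symbols, 15696 passed the filter on low counts and were tested. Of these, 11257 (71.7%) passed edgeR's quasi-likelihood test at a Benjamini-Hochberg adjusted p under 0.05. The number that rose was 5676 (36.2%) and the number that fell 5581 (35.6%), and for 69.7% of tested genes the 3 ESC and the 3 day 4 values did not overlap. These shares are the background for all counts that follow. The balance of directions hid a difference in size. A rise of at least 8-fold was measured for 810 genes and a fall of that size for 166. The 810 genes were mostly silent in the ESC libraries, with a median of 0.133 CPM at day 0, 0.942 CPM at day 2 and 3.00 CPM at day 4, and 684 of them were under 1 CPM in ESCs. The 166 genes had medians of 8.19, 0.827 and 0.382 CPM at the same times. Abundant genes moved the other way: of 2592 genes with a mean of at least 100 CPM over the 2 groups, 1426 fell and 684 rose, whereas of 1771 genes under 1 CPM, 190 fell and 760 rose. The filter ran over 5 groups, all but the ESC group being induced cells. A low gene that is high in induced cells thus passes it more readily than one that is high in ESCs alone. The counts of large rises and of rises among low genes therefore describe the genes that passed the filter.

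**Figure D1:**
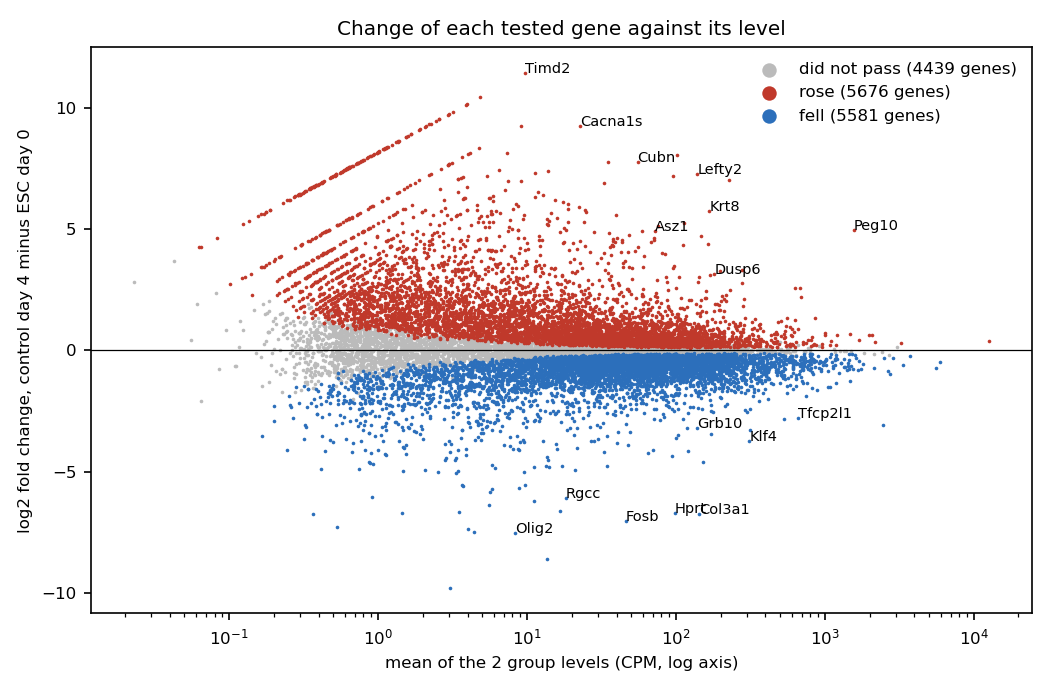
Each point is a tested gene, with the mean of its ESC and control day 4 levels in CPM on a log axis and its log2 fold change, day 4 minus ESC, on the vertical axis. Among the genes that passed the filter, rises of at least 8-fold (810 genes) outnumber falls of that size (166 genes). The slanted lines of points at the upper left are genes with 0 or a few counts in the ESC libraries.

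The largest rises were of genes with almost no ESC counts. Timd2, Mrgprx2, AF067063, Prame, Tcp11x2, Naip5 and Olfr815 had 0 counts in all 3 ESC libraries. Against a floor of 3 counts over the group they were at least 291-fold, 145-fold, 116-fold, 90.7-fold, 88.2-fold, 77.0-fold and 76.7-fold higher at day 4. Cacna1s, a skeletal muscle calcium channel subunit, was at 0, 0.0677 and 0.132 CPM in ESCs and at 46.6, 48.2 and 42.4 CPM at day 4. That is 3 counts against 2193, a ratio of 681 with an exact 95% counting interval of 233 to 3306. Magea10, Olfr376 and Cftr rose from 1 count each to 455, 400 and 384. Day 2 levels of Cacna1s (1.17 to 2.12 CPM) were nearer to ESCs than to day 4. A pair of families of this kind was looked at after their members had been seen. Of 16 tested Mage genes 13 rose and none fell at an adjusted p under 0.05 (edgeR, median log2 fold change 4.29), and of the 19 olfactory receptor genes that passed the filter, out of 1127, 12 rose and 2 fell (median 3.71). A silent gene passes the filter more easily when it is high in some group, so these medians describe the genes that passed and not the families.

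The largest falls included genes whose ESC libraries lay apart. Olig2, a neural transcription factor, was at 19.6, 17.9 and 12.1 CPM in ESCs and at 0, 0.0690 and 0.177 CPM at day 4, a log2 fold change of -7.52 (SE 0.43), or -8.72 without day 4 replicate 3. Rgcc, a cell cycle regulator, was at 31.2, 32.1 and 44.5 CPM and then at 0.541, 0.345 and 0.648 CPM. Its log2 fold change was -6.10 (SE 0.27, edgeR adjusted p = 9.31e-12). Apoa2, an apolipoprotein of high density lipoprotein, fell from 312 counts to 3, a ratio of 112 (37.8 to 544). Apoa2 was at 6.13 to 7.51 CPM in the ESC libraries, and Rgcc was highest in replicate 3. Ubd, a ubiquitin-like protein, was at 8.73, 8.59 and 0.989 CPM in ESCs and had 0 counts at day 4, at least 97.3-fold lower, and it did not pass in DESeq2. Saa3, Agtr2, Col3a1, Sod3, Svep1 and Serpina3h were likewise highest in ESC replicate 1 and lowest in replicate 3, as the fibroblast genes were. Col3a1, type III collagen, was at 557, 262 and 37.5 CPM in ESCs and at 1.93 to 3.18 CPM at day 4. Its log2 fold change of -6.75 was -5.81 without ESC replicate 1.

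Genes of the LIF and STAT3 pathway, which here include ligand, receptor, kinase and target genes, were mostly lower at day 4. LIF had by then been withdrawn, along with the other changes of condition, and its part was not tested. Of 16 tested genes of this pathway 11 fell and 2 rose, with a median log2 fold change of -0.82 against 0.02 over all tested genes. Bcl3, a transcriptional coregulator, was at 63.5, 51.0 and 62.8 CPM in ESCs and at 8.90, 10.8 and 9.84 CPM at day 4 (log2 fold change -2.59, SE 0.15, edgeR adjusted p = 2.40e-10). Socs3, the feedback inhibitor of the receptor complex, was at 120, 126 and 128 CPM and then at 20.4, 25.1 and 24.6 CPM. The groups did not overlap for either gene, and ESC replicate 3 was not apart from the others. Both were already low at day 2 (6.0 to 10.2 CPM for Bcl3 and 37.0 to 46.0 CPM for Socs3). Ccnd3, a D-type cyclin, fell by 1.60 on the log2 scale, and Stat3 itself by 0.91. Osmr, the oncostatin M receptor, was at 31.1, 16.5 and 2.04 CPM in ESCs and at 0.828 to 1.20 CPM at day 4, so its fold change of -4.07 (log2) rests on the 2 ESC libraries richest in fibroblast RNA and was -3.24 without replicate 1. The 2 genes that rose were Jak1, the receptor kinase (0.22), and Gbx2, a homeobox gene (0.51), and Gbx2 no longer passed without ESC replicate 3 or without day 4 replicate 2.

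The FGF and ERK list holds ligands, receptors, transcription factors and feedback inhibitors. The list was mostly higher at day 4, when the MEK inhibitor, FGF and the other conditions all differed. Of its 23 tested genes 17 rose and 4 fell (median 0.86). Among those that rose are phosphatases and inhibitors that ERK activity is known to induce and that in turn restrain it. Dusp4, a phosphatase of ERK (chr8:34807610-34819894), was at 5.84, 5.89 and 4.55 CPM in ESCs, at 23.6 to 28.1 CPM at day 2 and at 85.2, 96.2 and 88.4 CPM at day 4 (log2 fold change 4.05, SE 0.11, edgeR adjusted p = 3.46e-14). Dusp6, the cytoplasmic ERK phosphatase (chr10:99263231-99267489), was at 43.5, 44.8 and 19.9 CPM, then at 38.5 to 40.3 CPM at day 2 and at 296, 335 and 347 CPM at day 4. So Dusp4 had moved by day 2, whereas Dusp6 at day 2 was within the range of the ESC libraries. Spry4, a receptor tyrosine kinase inhibitor, went from 45.3, 30.2 and 3.89 CPM to 148, 156 and 146 CPM, with day 2 at 10.2 to 13.4 CPM. Its log2 fold change was 2.5 (SE 0.41) and 3.14 without ESC replicate 1. Phlda1, Fgfr2, Dusp5 and Etv1 rose by 2.52, 1.70, 1.35 and 1.31 on the log2 scale.

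The 4 genes of this list that fell were Fgf4, Egr1, Ccnd1 and Etv5. Fgf4, the ligand that naive cells make themselves, was at 264, 263 and 335 CPM in ESCs and at 60.3, 60.9 and 58.7 CPM at day 4 (log2 fold change -2.26, SE 0.08). Egr1, an immediate early transcription factor, was at 415, 352 and 178 CPM, at 0.378 to 1.08 CPM at day 2 and at 27.6 to 30.8 CPM at day 4. The lowest point was at day 2, and day 4 stayed below all ESC libraries. Fos and Fosb, subunits of AP-1, behaved alike at day 4: Fosb was at 130, 92.9 and 51.6 CPM in ESCs and at 0.662, 0.552 and 0.824 CPM at day 4 (log2 fold change -7.04, SE 0.36), and Fos fell by 4.34. Of 19 tested immediate early genes 10 fell and 4 rose, with a median of -0.57. With replicate 3 as the only ESC library 9 fell and 7 rose (median 0.11), and with a fibroblast score (the mean log2 CPM of the collagen genes Col1a1, Col1a2 and Col3a1) as a covariate 5 fell and 10 rose (median 0.64), so the direction of the list turned. Their summed level in the ESC libraries was 2133, 1747 and 1284 CPM, in the order of the fibroblast genes, and the part of feeder RNA or of handling in these falls was not tested. The 4 that rose were Btg2, Ier5, Klf6 and Ier3, by 0.86, 1.45, 0.63 and 1.25. The groups overlapped for Ier3, which did not pass when the 6 libraries were fitted alone.

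**Figure D2:**
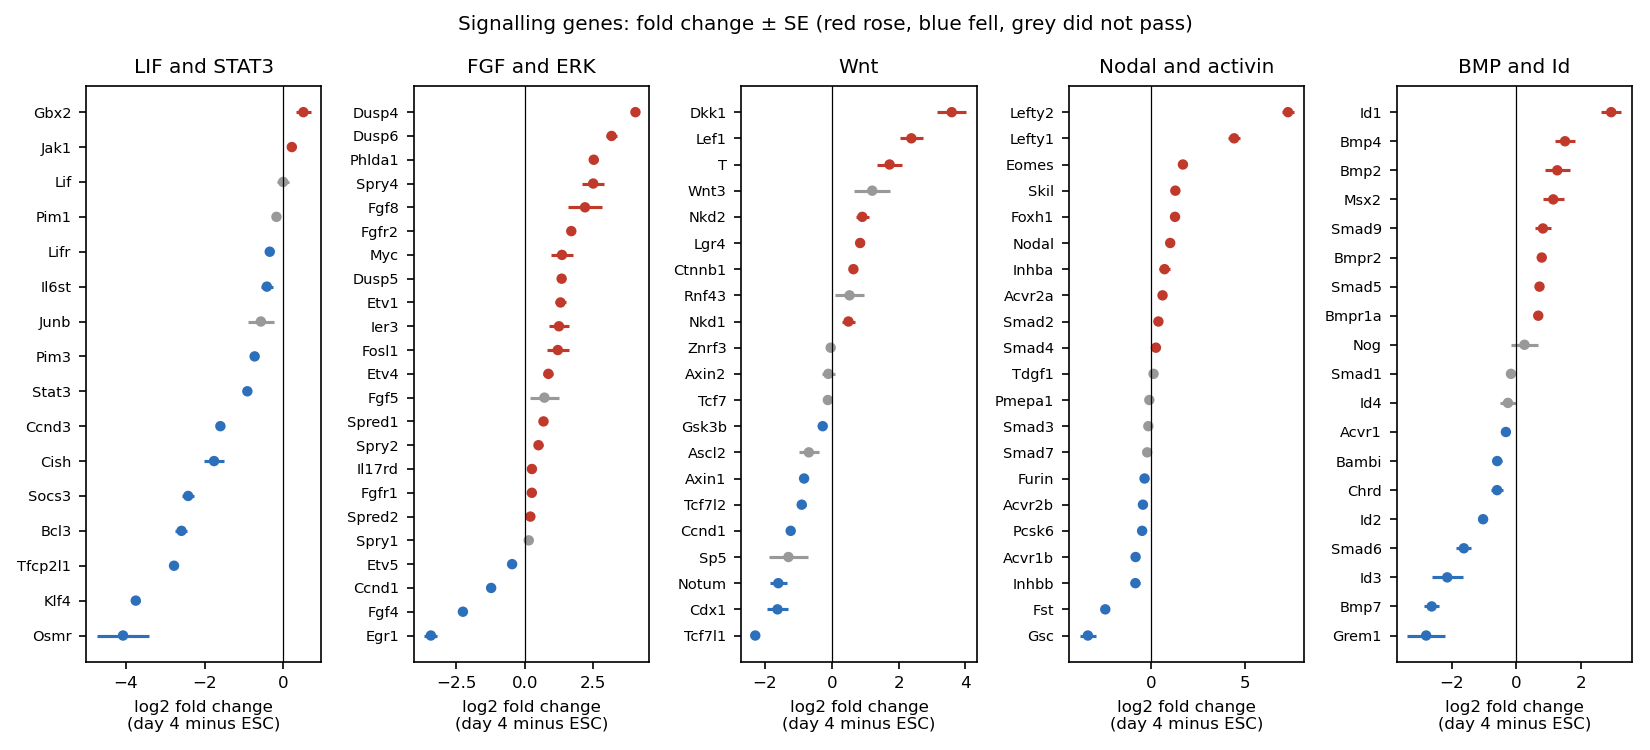
Log2 fold change, day 4 minus ESC, with its standard error, for tested genes of 5 signalling lists, in red where it rose, blue where it fell and grey where it did not pass. The LIF and STAT3 genes lie mostly left of 0 (11 of 16 fell), the FGF and ERK genes mostly right (17 of 23 rose), and the Wnt and BMP lists hold as many that rose as fell (7 and 7, 8 and 8).

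The Wnt list did not move in 1 direction. Of 21 tested genes 7 rose, 7 fell and 7 did not pass, about the shares of all tested genes. Tcf7l1, the repressor of beta-catenin targets, was at 135, 131 and 177 CPM in ESCs, at 59.1 to 61.1 CPM at day 2 and at 31.8, 29.5 and 29.3 CPM at day 4 (log2 fold change -2.29, SE 0.10, edgeR adjusted p = 5.16e-12). Lef1, a transcription factor of the same family, was at 0.739, 0.880 and 2.77 CPM and rose to 7.40, 9.73 and 6.01 CPM (log2 fold change 2.38, and 3.24 without ESC replicate 3). Ctnnb1, which encodes beta-catenin, rose by 0.65 and Axin1, of its destruction complex, fell by 0.83. Axin2, the feedback target of the pathway, was at 29.2, 26.4 and 13.0 CPM in ESCs and at 22.0, 21.3 and 20.6 CPM at day 4, with overlapping groups (edgeR adjusted p = 0.655). Without ESC replicate 3 its fold change was -0.38 and passed. Dkk1, a secreted Wnt inhibitor, rose from at most 0.806 CPM to 5.59, 6.07 and 3.12 CPM (log2 fold change 3.59, SE 0.43, and 4.57 without ESC replicate 1), and the streak gene T rose by 1.73.

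Lefty2 and Lefty1, targets of Nodal and activin, gave some of the largest rises among the signalling genes, from low ESC levels. Lefty2, a secreted inhibitor of Nodal that the pathway itself induces (chr1:180893108-180899107), was at 2.96, 1.89 and 0.462 CPM in ESCs, at 20.8 to 28.4 CPM at day 2 and at 225, 375 and 231 CPM at day 4. The lowest day 4 library was far above the highest ESC library, and the log2 fold change was 7.29 (SE 0.30, edgeR adjusted p = 3.42e-12), or 7.88 without ESC replicate 1. Lefty1, its paralog and neighbour, went from 2.82, 1.49 and 1.12 CPM to 33.1, 52.5 and 31.4 CPM. The 2 genes are similar in sequence, and the rule for counting reads that match both is unknown. The ligand Nodal rose by 1.02, its nuclear partner Foxh1 by 1.27, the T-box factor Eomes by 1.69 and the SMAD corepressor Skil by 1.29.

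Other genes of that pathway fell. Fst, the extracellular trap of activin, was at 16.9, 16.7 and 14.2 CPM in ESCs and at 2.47, 2.69 and 3.59 CPM at day 4 (log2 fold change -2.44, SE 0.19). Gsc, an organizer homeobox gene and a known activin target, was at 3.02, 2.5 and 4.35 CPM and then at 0.241, 0.414 and 0.294 CPM. The type I receptor Acvr1b fell by 0.83. In all 11 of 22 tested genes rose and 7 fell (median 0.19), and the median was -0.01 once each gene's chromosome median was subtracted. In the BMP list 8 of 19 rose and 8 fell (median -0.17). Id1, an inhibitor of basic helix-loop-helix factors and a BMP target, was at 19, 13.0 and 3.23 CPM in ESCs, at 10.9 to 11.7 CPM at day 2 and at 90.0, 89.2 and 92.3 CPM at day 4 (log2 fold change 2.95, SE 0.31). Its relative Id2 went down, from 33.1, 39.8 and 29.5 CPM to 13.8, 16.9 and 19.3 CPM. Id3 was at 65.8, 32.9 and 6.79 CPM in ESCs and at 6.86 to 10.1 CPM at day 4. It passed the test with overlapping groups, at -2.15, and was -1.32 without ESC replicate 1. Bmp7 fell by 2.63, the inhibitory Smad6 by 1.63, and the receptor Bmpr1a rose by 0.68.

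Among the naive genes 15 of 20 fell and 4 rose, and the fallen ones differed in when they fell. Klf2, a transcription factor of the naive network (chr8:72319062-72321654), was at 180, 167 and 171 CPM in ESCs, at 43.1 to 59.2 CPM at day 2 and at 33.5, 27.8 and 36.8 CPM at day 4 (log2 fold change -2.40, SE 0.12, edgeR adjusted p = 4.88e-11). Esrrb, an orphan nuclear receptor, was at 893, 913 and 764 CPM, and no lower at day 4 (246 to 261 CPM) than at day 2 (211 to 227 CPM). Dppa5a, an RNA-binding protein of pluripotent cells, was at 1461, 1598 and 1744 CPM in ESCs, still at 1654 to 1822 CPM at day 2, and at 544, 543 and 580 CPM at day 4. Day 2 lay above the median of the ESC libraries, so its fall came after day 2. Fgf4 at day 2 (172 to 187 CPM) lay between its ESC and its day 4 levels.

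Tdh, threonine dehydrogenase, a mitochondrial enzyme on which mouse ESCs are known to depend (chr14:63492347-63509092), was at 724, 651 and 337 CPM in ESCs, at 31.6 to 33.5 CPM at day 2 and at 62.6, 56.5 and 56.1 CPM at day 4 (log2 fold change -3.29, SE 0.21). Prdm14, a repressor of FGF signalling and of DNA methyltransferases, went from 51.8, 56.0 and 101 CPM to 16.3, 13.9 and 14 CPM. Here ESC replicate 3 was the highest, unlike Tdh, where it was the lowest. Spic, Nr0b1 and Nr5a2, transcription factors, fell by 3.68, 2.41 and 1.92. The 4 that rose were Zfp42, better known as Rex1, by 1.22, Dppa3 by 1.15, Gbx2 by 0.51 and Fbxo15 by 0.43. Klf5 was at 182, 173 and 117 CPM in ESCs and at 155, 155 and 143 CPM at day 4 and did not pass (edgeR adjusted p = 0.691). It passed, at -0.23, without ESC replicate 3, and was at 0.37 with that replicate as the only ESC library.

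The general pluripotency list split evenly, with 7 of 16 genes up and 7 down. Dppa2, which with its partner Dppa4 opens chromatin at developmental genes, was at 99.0, 95.5 and 63.1 CPM in ESCs, at 101 to 124 CPM at day 2 and at 357, 351 and 344 CPM at day 4 (log2 fold change 2.03, SE 0.12, edgeR adjusted p = 3.58e-10). Dppa4 rose by 0.53 and Lin28b, a blocker of let-7 maturation, by 0.89. Sall4 fell by 1.28, Gdf3 by 1.74 and Foxd3 by 2.13. Foxd3 was at 53, 41.1 and 13.3 CPM in ESCs, so its lowest ESC library was not far above day 4 (7.58, 7.80 and 9.07 CPM). Of the 20 formative and primed genes 14 rose and 2 fell (median 1.14). Car4, a membrane carbonic anhydrase, was at 0.470, 0.338 and 0.857 CPM, at 26.8 to 28.8 CPM at day 2 and at 37.7, 39.9 and 34.7 CPM at day 4 (log2 fold change 6.05, SE 0.22). Grhl2, an epithelial transcription factor, was at 17.1, 19.5 and 13.5 CPM and then at 57.3, 57.8 and 51.9 CPM. Sox4 and Enox1 rose by 1.71 and 2.13. The 2 that fell were Tead2 (-0.89), a partner of the Hippo effector YAP, and Zic2 (-0.56).

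**Figure D3:**
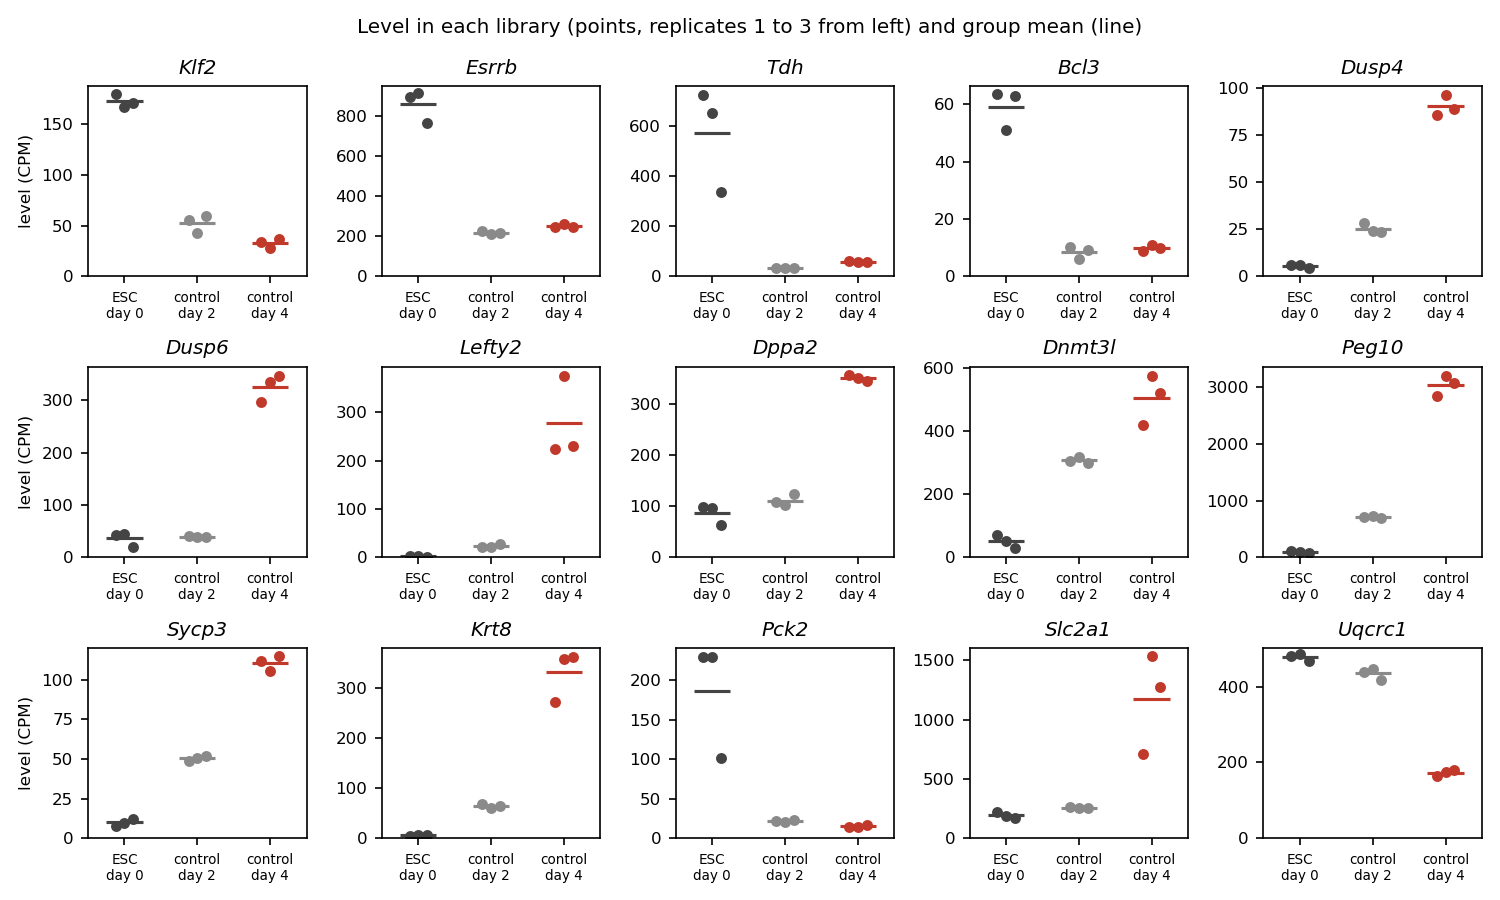
Level in CPM, from 0, of 15 genes in each ESC, control day 2 and control day 4 library (points, replicates 1 to 3 from left) with the group mean (line). Klf2, Tdh, Bcl3 and Pck2 are low by day 2, Dusp6, Lefty2 and Slc2a1 are far higher at day 4 than at day 2, and ESC replicate 3 lies below the other 2 ESC libraries for Tdh, Dusp6 and Pck2.

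Genes of the DNA methylation machinery did not share a direction. All 17 tested members passed: 6 rose and 11 fell. Dnmt3l, the catalytically inactive partner of the de novo methyltransferases (chr10:78042287-78063622), was at 69.3, 51.2 and 30.2 CPM in ESCs, at 297 to 316 CPM at day 2 and at 419, 575 and 520 CPM at day 4 (log2 fold change 3.33, SE 0.19, edgeR adjusted p = 2.16e-10). Dnmt3b, a de novo enzyme, rose by 0.66 and missed the test when the 6 libraries were fitted alone. The maintenance enzyme Dnmt1 fell by 0.62. Its recruiter Uhrf1 went from 790, 709 and 524 CPM to 384, 393 and 360 CPM. Of the dioxygenases that oxidise methylcytosine, Tet1 was at 792, 875 and 667 CPM and then at 389, 379 and 303 CPM (log2 fold change -1.12, SE 0.09), Tet2 fell by 0.50, and Tet3 rose from 15.2, 13.3 and 14 CPM to 31.5, 35.0 and 28.0 CPM. The chromatin remodeller Hells rose by 0.57, and Mbd3, of the NuRD complex, and Trim28, the corepressor of zinc finger proteins, fell by 1.46 and 0.93. Methylation itself was not measured.

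Imprinted genes, which are expressed from the maternal or the paternal copy according to methylation set in the germ line, rose more often than they fell: 16 of 27 tested rose and 7 fell (median 0.58), so 23 of 27 passed, where 71.7% of all tested genes did. Peg10 (chr6:4747306-4760517), a retrotransposon-derived gene needed by the placenta, was at 120, 99.1 and 68.1 CPM in ESCs, at 693 to 728 CPM at day 2 and at 2840, 3196 and 3077 CPM at day 4. Its log2 fold change was 4.99 (SE 0.15, edgeR adjusted p = 1.02e-13). Its neighbour Sgce (chr6:4674350-4747204) rose from 8.46, 7.51 and 7.58 CPM to 61.2, 69.8 and 66.3 CPM. Mest (chr6:30733506-30748466), in another imprinted cluster, rose from 43.0, 31.1 and 37.0 CPM to 378, 348 and 344 CPM. The 3 genes share chromosome 6, whose tested genes had a median log2 fold change of 0.44, and the part of the chromosome in their rises was not tested. The log2 fold change was 3.06 for Sgce and 3.27 for Mest. Impact, on chromosome 18, rose by 2.04. Grb10, an adaptor that restrains growth factor signalling, fell from 253, 253 and 250 CPM to 26.8, 30.6 and 25.4 CPM (log2 fold change -3.19, SE 0.09), and was at 39.4 to 47.2 CPM at day 2. Peg3, a zinc finger gene, fell by 2.16 and Phlda2 by 1.74. Igf2, a fetal growth factor, was at 228, 128 and 16.3 CPM in ESCs and at 6.25 to 7.36 CPM at day 4, so its -4.21 (-3.43 without ESC replicate 1) moved with the fibroblast genes.

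Genes of the germ line, which encode meiotic chromosome proteins and the piRNA pathway and are silenced in somatic cells, were higher at day 4 in all 24 cases. The summed level of the list was 732, 807 and 1135 CPM in ESCs and 3499 to 3791 CPM at day 4 (median log2 fold change 2.11). Earlier results of these data had shown the direction of this list, so its count is no independent support. Asz1, a piRNA pathway protein, was at 2.55, 3.65 and 7.65 CPM in ESCs, at 68.2 to 78.1 CPM at day 2 and at 136, 143 and 143 CPM at day 4 (log2 fold change 4.92, SE 0.19, edgeR adjusted p = 1.98e-12). Mael, of the same pathway, and Stk31, a kinase of the testis, rose by 2.06 and 2.25. ESC replicate 3 was the highest ESC library for Asz1, the reverse of the fibroblast genes.

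Many promoters of germline genes hold the E-box CACGTG, which reads the same on both strands and is the site bound by the repressor complex with MGA and MAX. Promoter windows of 300 bases from RefSeq (GRCm38.p6, 250 bases before to 50 after the start) were matched for 22 of the 24 genes, and 12 held CACGTG, against 8.09% of all 27025 symbols in that table. The 3 genes with the E-box that rose most are shown as 100 bases on their own strand, with the E-box in capitals. Their windows are chrX:134476491-134476590, minus strand, for Taf7l, chr3:40708731-40708830, plus strand, for Slc25a31, and chr19:56826109-56826208, plus strand, for Tdrd1.
Taf7l: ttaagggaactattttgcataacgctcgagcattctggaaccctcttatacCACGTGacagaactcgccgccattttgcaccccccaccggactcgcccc
Slc25a31: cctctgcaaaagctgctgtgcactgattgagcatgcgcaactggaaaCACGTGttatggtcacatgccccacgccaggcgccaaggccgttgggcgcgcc
Tdrd1: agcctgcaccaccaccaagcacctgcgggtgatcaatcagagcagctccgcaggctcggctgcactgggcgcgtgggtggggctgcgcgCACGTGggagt
The E-box begins 49, 93 and 11 bases before the annotated starts of Taf7l, Slc25a31 and Tdrd1. Taf7l, a testis form of a TFIID subunit, was at 5.37, 8.05 and 18.6 CPM in ESCs and at 274, 289 and 290 CPM at day 4 (log2 fold change 4.73, SE 0.24, and 5.41 without ESC replicate 3). Slc25a31, the germline ADP/ATP carrier, went from 4.63, 3.18 and 9.50 CPM to 132, 139 and 144 CPM. Tdrd1, a tudor protein that binds PIWI proteins, went from 0.537, 0.677 and 1.65 CPM to 12.0, 12.2 and 9.72 CPM (3.55, and 4.20 without ESC replicate 3). A match of letters is a description of the window and not evidence of binding.

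All 18 tested genes of the 2-cell stage list rose, and 8 of 18 rose and 1 fell when the fibroblast score was a covariate. Together they summed to 22.3, 26.5 and 91.4 CPM in the ESC libraries and to 652 to 814 CPM at day 4. Genes so low in ESCs pass the filter through the groups where they are high, and have little room to fall. The count thus describes the genes that passed. Their direction had also been seen earlier in these data. Tdpoz4, of a multicopy family, had 6 counts in the ESC libraries, all in replicate 3, and was at 23.8, 21.1 and 22.5 CPM at day 4. The 3 members of the Usp17 family of deubiquitinases with the smallest p were Usp17lc, Usp17la and Usp17lb, which rose by 5.70, 4.36 and 5.58 on the log2 scale. Without ESC replicate 3, Usp17lc was at 6.32 and Usp17lb at 6.90. Members of these families are almost the same in sequence, and the division of reads among them is uncertain.

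Genes of other lineages rose in part. Of 22 tested endoderm genes 18 rose and 4 fell (median 2.53). Lrp2, the endocytic receptor megalin, rose by 3.13, the basement membrane genes Col4a1 and Lamb1 by 2.51 and 1.37, and Gata6 by 4.49 (5.09 without ESC replicate 3). Cubn, the partner of megalin in endocytosis, named here after its value was seen, was at 0.605, 0.203 and 0.660 CPM in ESCs and at 139, 123 and 69.7 CPM at day 4. The 4 that fell were Apoe (-1.11), Fst (-2.44), Sparc (-0.54) and Lamc1 (-0.24), and Lamc1 did not pass under the stricter filter. In the streak and mesoderm list 5 of the 9 genes that passed the filter rose, among them Kdr, a receptor of VEGF, by 4.15, and Gsc fell. In the neural list 5 of 10 rose, with Nes at 1.15, Map2 at 0.91 and Tubb3 at 0.39, and Sox1 fell from 11.8, 10.6 and 15.9 CPM to 1.98, 1.86 and 1.88 CPM.

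Of 14 tested keratin genes, a family looked at after values were seen, 9 rose and 3 fell, with log2 fold changes from -2.89 to 6.92. Krt8, an intermediate filament gene (chr15:101996711-102004342), was at 5.51, 7.04 and 5.80 CPM in ESCs, at 60.5 to 68.2 CPM at day 2 and at 272, 357 and 361 CPM at day 4 (log2 fold change 5.75, SE 0.14, edgeR adjusted p = 2.11e-14). Its partner Krt18 rose from 6.45, 5.35 and 5.28 CPM to 183, 236 and 244 CPM. Krt19 went from at most 0.725 CPM to 31.9, 85.0 and 80.7 CPM. Day 4 replicate 1 was the lowest of the day 4 libraries for all 3. These keratins stood in the trophoblast list, where 7 of 13 rose, and Tfap2c, a transcription factor of trophoblast and naive cells, fell there from 159, 177 and 249 CPM to 28.1, 26.4 and 27.3 CPM. In the epithelial and mesenchymal list 13 of 24 rose and 6 fell. Besides the keratins the clearest rises were of Grhl2 and of Itgb1, an integrin chain (1.18), and the falls of Fn1, fibronectin (-1.26), and Crb3, an apical polarity protein (-2.07). Cdh1, E-cadherin, changed by -0.29 and Epcam by 0.78.

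**Figure D4:**
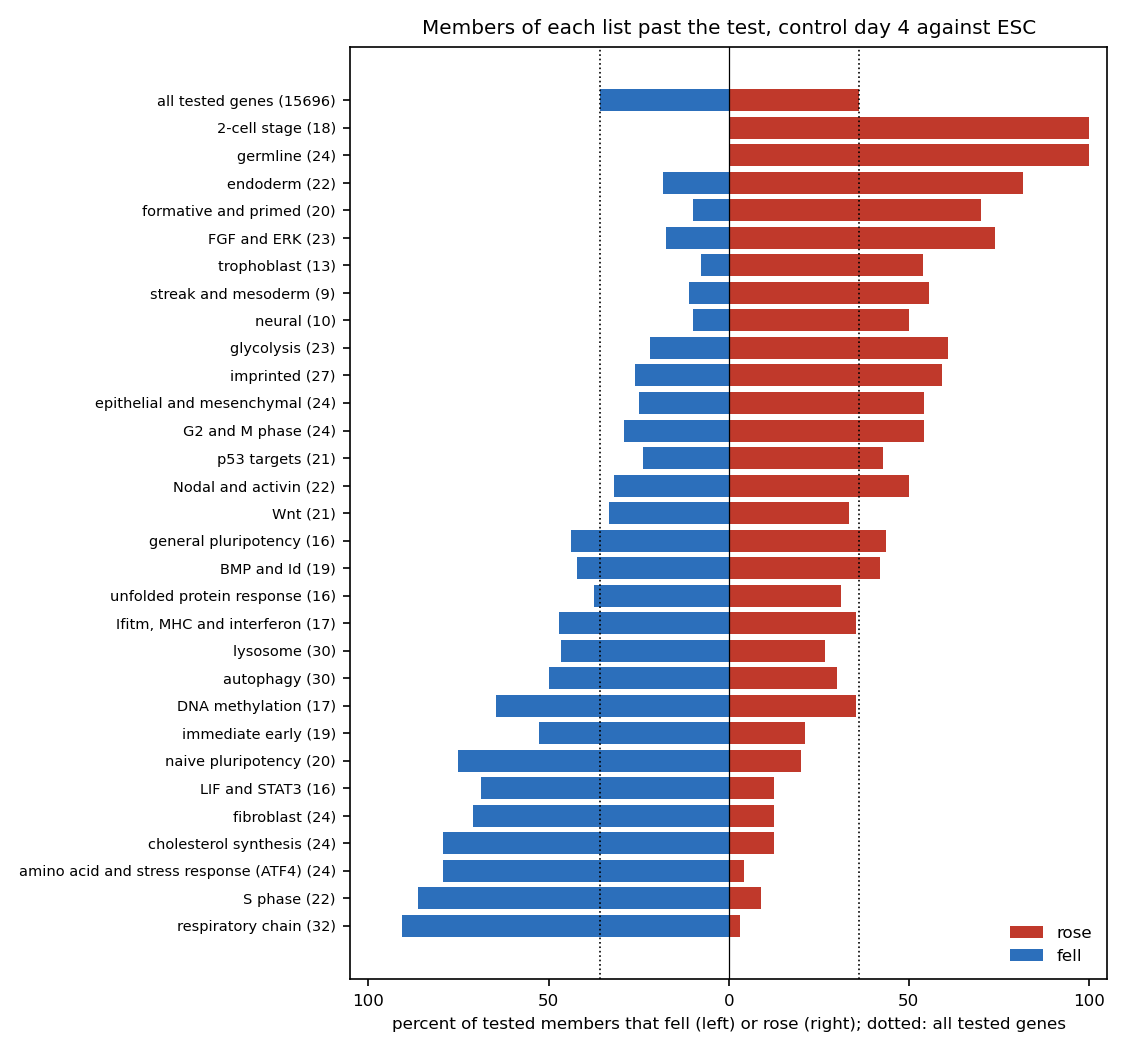
Percent of the tested members of each gene list that fell (blue, to the left) or rose (red, to the right), with the number of tested members in parentheses and dotted lines at the shares of all tested genes (35.6% and 36.2%). The respiratory chain list has the highest share that fell (29 of 32), and the germline and 2-cell lists have no tested member that fell. The 2-cell genes were low in ESCs, with little room to fall.

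Targets of ATF4, the transcription factor that cells use when amino acids are short or translation is restrained, were lower at day 4. Of 24 tested genes 19 fell and 1 rose, Ddit4 by 0.90, with a median of -1.50. The summed level was 5130, 5328 and 3865 CPM in ESCs and 1927 to 2146 CPM at day 4. Atf4 itself was at 572, 588 and 406 CPM in ESCs, at 91.3 to 113 CPM at day 2 and at 128, 141 and 151 CPM at day 4 (log2 fold change -1.90, SE 0.12). Slc3a2 and Slc7a5, the 2 chains of a neutral amino acid transporter, fell by 1.46 and 1.74, and Trib3, a pseudokinase that feeds back on ATF4, by 2.60. Pck2, the mitochondrial PEP carboxykinase (chr14:55540263-55550020), named after its value was seen, was at 230, 229 and 101 CPM in ESCs and at 14.9, 14.6 and 16.8 CPM at day 4 (log2 fold change -3.59, SE 0.24). With ESC replicate 3 as the only ESC library 18 of 24 fell and 2 rose, with a median of -0.95, and with the fibroblast score as a covariate 13 fell and 1 rose, with a median of -0.72.

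The composite site TGATGCAA, bound by ATF4 with a C/EBP partner, was searched on both strands of the same promoter windows. It was present in 6 of the 23 matched symbols of this list, against 1.03% of all symbols. The site is also present in a listed gene that did not pass the test and in a listed gene too low to be tested. The 3 genes that hold it and fell most are shown as 100 bases on their own strand, where the site appears as its reverse complement, in capitals. Their windows are chr7:126625527-126625626, minus strand, for Nupr1, chr2:119351003-119351102, plus strand, for Chac1, and chr1:191183390-191183489, minus strand, for Atf3.
Nupr1: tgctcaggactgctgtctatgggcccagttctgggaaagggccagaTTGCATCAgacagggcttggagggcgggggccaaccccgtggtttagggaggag
Chac1: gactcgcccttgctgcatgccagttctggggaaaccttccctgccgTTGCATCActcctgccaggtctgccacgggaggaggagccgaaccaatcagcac
Atf3: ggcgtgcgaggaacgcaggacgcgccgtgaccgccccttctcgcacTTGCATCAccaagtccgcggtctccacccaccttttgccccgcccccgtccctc
The site begins 110, 193 and 110 bases before the annotated starts of Nupr1, Chac1 and Atf3. Nupr1, a small chromatin protein of the stress response, was at 80.9, 91.4 and 54.7 CPM in ESCs and at 4.63, 5.59 and 5.83 CPM at day 4 (log2 fold change -3.82, SE 0.18, edgeR adjusted p = 1.67e-11). Chac1, which degrades glutathione, went from 32.0, 37.4 and 14.4 CPM to 6.86, 6.90 and 5.71 CPM. Atf3, which is also an immediate early gene, went from 19, 19.4 and 12.9 CPM to 6.92, 8.08 and 9.84 CPM, with day 2 lower still at 1.90 to 2.41 CPM. With the fibroblast score as a covariate Chac1 (-0.62) and Atf3 (-0.21) did not pass. The genes of the unfolded protein response, another stress pathway, had no common direction: 5 of 16 rose, led by Xbp1 at 1.10, and 6 fell, led by Sdf2l1 at -0.99.

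Genes of glucose uptake and lactate export rose while genes of the respiratory chain fell. Slc2a1, the main glucose transporter (chr4:119108745-119137330), was at 225, 192 and 168 CPM in ESCs, at 255 to 263 CPM at day 2 and at 712, 1535 and 1275 CPM at day 4 (log2 fold change 2.59, SE 0.19, edgeR adjusted p = 3.09e-09). Slc16a3, the lactate exporter MCT4, went from 4.77, 5.28 and 7.65 CPM to 71.1, 186 and 135 CPM. Day 4 replicate 1 had the least of both, well apart from replicates 2 and 3, and still lay above all ESC libraries. Pdk1, which shuts pyruvate dehydrogenase, went from 93.0, 80.1 and 60.7 CPM to 316, 371 and 340 CPM, and Pfkfb3, an activator of glycolysis, rose by 1.98. The glycolysis list summed to 11524, 11080 and 10877 CPM in ESCs and to 11684, 17404 and 15291 CPM at day 4. Day 4 replicate 1 thus lay close to the ESC libraries in that sum. For Aldoa, Aldoc and Pkm, which rose, it lay within the range of the ESC libraries. In this list 14 of 23 rose and 5 fell (median 0.41), and for 15 of the 23 the groups did not overlap. Hk1, the constitutive hexokinase, was among those that fell, from 189, 205 and 229 CPM to 37.2, 44.7 and 42.0 CPM (log2 fold change -2.33, SE 0.08). Pfkm, Pgam1 and Ldhb fell by 0.80, 0.54 and 1.28.

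In the respiratory chain list 29 of 32 fell and 1 rose (median -0.75), and the summed level was 9586, 9941 and 10021 CPM in ESCs and 5862, 6002 and 6230 CPM at day 4. Uqcrc1, a core subunit of complex III (chr9:108936648-108949641), was at 480, 486 and 467 CPM in ESCs, at 419 to 448 CPM at day 2 and at 164, 174 and 181 CPM at day 4 (log2 fold change -1.46, SE 0.05, edgeR adjusted p = 6.68e-13). Cox5a, of complex IV, went from 378, 363 and 413 CPM to 122, 132 and 141 CPM. Cyc1, cytochrome c1 of complex III, fell by 1.05. The gene that rose, Ndufa4 (0.32), lies on chromosome 6. Families picked after their values were seen fell too: 64 of 75 cytosolic ribosomal protein genes fell and 1 rose (median -0.49), as did 64 of 78 mitochondrial ribosomal protein genes, with 5 that rose (median -0.61). Cytosolic ribosomal protein genes summed to 74196 to 76667 CPM in the ESC libraries, 51067 to 57754 CPM at day 4 and, between them, 62157 to 68854 CPM at day 2.

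Cholesterol synthesis genes were lower as a group. Of 24 tested genes 19 fell and 3 rose (median -0.49). Srebf2, the transcription factor that drives them, was at 375, 397 and 489 CPM in ESCs, at 424 to 437 CPM at day 2 and at 128, 133 and 118 CPM at day 4 (log2 fold change -1.73, SE 0.08). Pmvk, a kinase of the mevalonate pathway, went from 49.0, 51.6 and 42.3 CPM to 9.38, 12.4 and 11.8 CPM, and Tm7sf2, a sterol reductase, from 29.9, 26.1 and 24.9 CPM to 3.49, 4.14 and 5.65 CPM. Fdps, the farnesyl pyrophosphate synthase, fell by 1.24. The 3 that rose were Stard4, a sterol carrier (1.43), Hsd17b7 (0.57) and Sc5d (0.43).

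Genes used in S phase fell and several genes used in mitosis rose. In the S phase list 19 of 22 fell and 2 rose (median -0.54). Ung, the uracil glycosylase, was at 232, 214 and 221 CPM in ESCs, at 173 to 188 CPM at day 2 and at 63.1, 67.8 and 68.3 CPM at day 4 (log2 fold change -1.74, SE 0.06). Cdt1, a replication licensing factor, went from 246, 225 and 220 CPM to 76.2, 78.6 and 72.0 CPM, and E2f1 and Mcm6 fell by 1.27 and 0.87. Ccne2, cyclin E2, was among the 2 that rose, by 1.04. In the list of G2 and M phase 13 of 24 rose and 7 fell, none by 2-fold. Ttk, a spindle checkpoint kinase, went from 85.5, 81.1 and 92.1 CPM to 170, 174 and 165 CPM, and Top2a rose by 0.64, while Aurkb fell by 0.82. Of 21 tested p53 targets 9 rose and 5 fell, but 6 rose and 9 fell with ESC replicate 3 as the only ESC library, and 3 rose and 13 fell with the fibroblast score as a covariate. Pmaip1, the cell death gene Noxa, was at 35.6, 41.0 and 69.4 CPM in ESCs and at 260, 274 and 270 CPM at day 4 (log2 fold change 2.46, SE 0.16). Cdkn1a, the cell cycle inhibitor p21, fell by 0.87.

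Autophagy genes, the subject of the wider series, moved both ways in control cells: 15 of 30 fell and 9 rose (median -0.16). The 2 initiating kinases went in opposite directions. Ulk1 was at 475, 491 and 566 CPM in ESCs, at 255 to 265 CPM at day 2 and at 164, 156 and 151 CPM at day 4 (log2 fold change -1.70, SE 0.06, edgeR adjusted p = 6.72e-13). Ulk2 was at 9.47, 9.61 and 15.1 CPM, at 24 to 27.8 CPM at day 2 and at 32.9, 37.3 and 33.8 CPM at day 4 (log2 fold change 1.60, SE 0.13). Their scaffold Rb1cc1 rose by 0.82, and Atg14, Atg4d and Atg2a fell by 1.22, 1.36 and 1.03. Atg7 changed by 0.15 and did not pass, though it passed at 0.25 under the stricter filter. Of 30 lysosome genes 14 fell and 8 rose. Mitf and Tfeb, which drive lysosome genes, were at 60.9 to 71.7 and 44.5 to 53.8 CPM in ESCs and at 10.5 to 13.7 and 11.4 to 11.5 CPM at day 4. Hexa and Npc2 fell by 1.38 and 0.92, and Ctsl, cathepsin L, rose from 177, 160 and 147 CPM to 335, 341 and 344 CPM.

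The list of interferon-inducible and MHC genes had no common direction: 6 of 17 rose and 8 fell, near the shares of all tested genes. Ifitm3, an antiviral membrane protein also known from germ cell precursors, was at 99.6, 88.2 and 82.8 CPM in ESCs, at 24.6 to 31.4 CPM at day 2 and at 5.59, 5.66 and 6.71 CPM at day 4 (log2 fold change -3.91, SE 0.13, edgeR adjusted p = 3.73e-13). Its relatives Ifitm1 and Ifitm2 fell by 2.51 and 2.5. The MHC class I genes H2-K1 and H2-D1 rose by 0.81 and 0.97, and the invariant chain Cd74 by 1.26. H2-D1 did not pass with the replicate block in the 6 libraries (edgeR adjusted p = 0.0529).

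The direction of change differed between chromosomes. The median log2 fold change of tested genes was 0.44 on chromosome 6, where 52.4% rose, 0.33 on chromosome 18 and 0.48 on chromosome X, where 54.9% rose, and -0.25 on chromosome 17 and -0.20 on chromosome 7. The other autosomes lay between -0.13 and 0.17. The medians were computed again with any 1 of the 6 libraries left out, with other scalings and with the stricter filter, and for no other setting. They stayed between 0.39 and 0.52 on chromosome 6, 0.42 and 0.57 on chromosome X and 0.31 and 0.41 on chromosome 18. Whether copy number, cell line or gene content moves with these medians was not tested. Of genes on the X, Rlim, an activator of X inactivation, rose by 1.67. Xist, the RNA that coats an inactive X, was at 58.1, 37.1 and 8.38 CPM in ESCs and at 30.0, 22.5 and 20.2 CPM at day 4 and did not pass (edgeR adjusted p = 0.242), with -0.51 on the log2 scale. It passed at -0.97 without ESC replicate 3 and was at 0.10 without ESC replicate 1. Without known strand its reads cannot be told from those of its antisense partner Tsix. On the Y, 3 of 8 genes rose and 5 fell: Usp9y went from 0.605, 1.08 and 1.38 CPM to 28.6, 23.3 and 20.4 CPM (log2 fold change 4.55, SE 0.24), whereas Ddx3y went from 117, 108 and 125 CPM to 78.8, 66.3 and 66.3 CPM (-0.73).

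**Figure D5:**
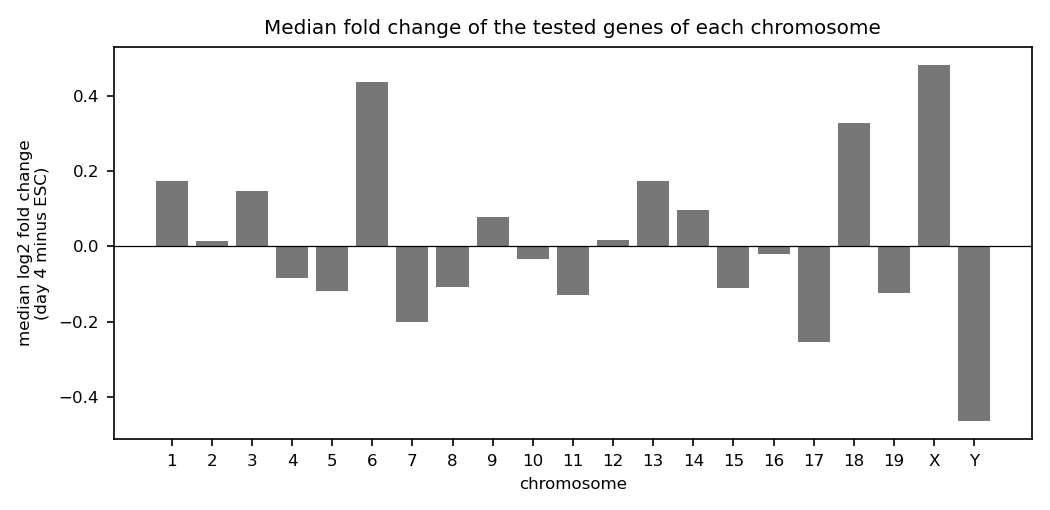
Median log2 fold change, day 4 minus ESC, of the tested genes of each chromosome (bars from 0). Chromosomes 6 (0.44), 18 (0.33) and X (0.48) lie above the other autosomes and Y (8 genes) lies lowest at -0.46.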

How the data were processed

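The deposited tables give whole-number read counts per gene symbol for 15 libraries, with mm10 (GRCm38) as the build and STAR, StringTie, featureCounts and DESeq2 among the tools, per the submitters' processing notes. Versions, annotation, strand and the handling of reads that match several genes are unknown here. From the counts, edgeR 4.0.16 (filterByExpr with a minimum count of 10, TMM scaling, quasi-likelihood test, Benjamini-Hochberg adjustment over 15696 genes, threshold 0.05) was fitted on all 15 libraries in 5 groups, so that all groups share the estimate of spread, with no covariate. Levels are CPM on TMM-scaled totals and are not divided by gene length. Library totals of 14059237 to 16517519 counts set the precision. The floor chosen for genes with 0 counts in a group was 3 counts over its 3 libraries. That is about 0.0669 CPM (ESC) or 0.0624 CPM (day 4). Counting intervals cover counting error only. Data were also simulated with the same totals, 200 changed genes and no ESC library that lay apart. In them 58.2%, 77.6% and 93.9% of genes changed by 1.5, 2 and 4-fold were recovered (67, 67 and 66 genes). There were 11 false calls among 15311 unchanged genes. In the real data 71.7% of genes passed, so the cutoff in p differed and these rates may not carry over.

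Genes were named by a rule: the 12 largest rises and falls with at least 5 CPM and no overlap, up to 4 rises and 4 falls of each list by p, all members where at most 5 moved in a direction, and any member of the pluripotency, methylation, signalling and sex chromosome lists. The members and lists were chosen with earlier results of these data known. Some genes stand in several lists, such as Gbx2 (naive, LIF and STAT3), Fgf4 (naive, FGF and ERK) and Egr1 (FGF and ERK, immediate early). The counts of different lists are therefore not independent. No pairing of the libraries by replicate number was seen, and whether same-numbered libraries shared a culture or a batch is unknown. The alternatives tried were other scalings, filters, tools, sets of libraries, a replicate block and a fibroblast score (the mean log2 CPM of Col1a1, Col1a2 and Col3a1) as a covariate. Chromosomes came from RefSeq (GRCm38.p6) and matched 99.9% of tested symbols. A few genes are not reported here, in the text or the plots by gene, and stay in the counts.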

Additional observations from a re-analysis of the deposited data

How the results depend on the processing

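The number of genes past the test was 11257, and 10784 to 11891 when 1 library was left out (5433 to 6098 higher and 5351 to 5793 lower at day 4). RLE scaling gave 11263, upper quartile scaling 11278 with 6267 higher and 5011 lower (median of all genes 0.10 in place of 0.02), no filter 11945, the stricter filter 8124, DESeq2 11158, a fit of the 6 libraries alone 9630, and ESC replicate 3 as the only ESC library, chosen after seeing the data, 10816, of which 9375 had passed with all 3. Deviations of same-numbered libraries correlated at 0.0034, 0.0029 and -0.0007, so no pairing by replicate number was seen in them. Whether same-numbered libraries shared a culture or a batch is unknown. With the replicate block 9135 genes passed in the 6 libraries and 11185 in all 15.

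The fibroblast score as a covariate, which by construction overlaps with the groups, left 7087 genes, 3215 of them higher at day 4. Under it 9 members of the BMP list, 10 of the G2 and M list and 9 of the 2-cell list passed. The direction of some lists turned under it: p53 targets went from 9 rose and 5 fell to 3 and 13, immediate early genes from 4 and 10 to 10 and 5, and fibroblast genes from 3 and 17 to 18 and 2. The stricter filter tested fewer genes and left 8 Wnt, 1 streak, 3 neural and 9 interferon and MHC members, and the block in the 6 libraries 7 unfolded protein response and 9 interferon and MHC members. Of 208 genes named in the text, 15 changed sign under the fibroblast score: Agtr2 (6.10), Col3a1 (0.059), Svep1 (1.42), Serpina3h (0.16), Osmr (2.41), Etv5 (0.28), Lef1 (-0.15), Axin2 (1.60), Id3 (3.05), Klf5 (0.89), Foxd3 (0.94), Uhrf1 (0.031), Igf2 (1.88), Ddit4 (-0.10) and Xist (3.33). A further 20 kept their sign under it and no longer passed: Olfr815, Ubd, Saa3, Sod3, Jak1, Ctnnb1, Skil (1.29 to 0.44), Id2, Dppa3, Fbxo15, Tet2, Sparc, Tubb3, Cdh1, Chac1, Atf3, Ndufa4, Hsd17b7, Sc5d and Tsix. With ESC replicate 3 as the only ESC library Axin2 (0.71), Id3 (0.22), Klf5 (0.37) and Xist (1.53) changed sign. In that fit Agtr2 (-1.53, against -7.37 with all 3) and Etv5 (-0.13, against -0.46) kept their sign. Subtracting chromosome medians turned the list medians of Wnt (0.027), Nodal and activin (-0.011), the unfolded protein response (-0.074) and the sex chromosome list (0.011). The causes were not tested. Depth limits calls for genes near the floor of 3 counts.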
